A study of Mus musculus with 12 samples.

Results

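The genes of heme breakdown and scavenging are Hmox1, Hmox2, Blvra, Blvrb, Hpx, Cd163, Lrp1, Slc48a1, Flvcr1 and Flvcr2, 10 genes found by their symbols among the 54833 genes of the expression table. Each symbol had 1 row, and all 10 genes passed the filter on low counts, which left 21495 genes for testing. Hemoglobin set free from lysed red cells can be carried by haptoglobin to Cd163 on macrophages, and free heme can be carried by hemopexin, the product of Hpx, to Lrp1. Slc48a1 moves heme out of endosomes and lysosomes, the heme oxygenases Hmox1 and Hmox2 open the heme ring to give biliverdin, carbon monoxide and iron, and the reductases Blvra and Blvrb act on biliverdin. Flvcr1 has been described as a heme exporter and as a choline transporter, and Flvcr2 is its close relative.

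RNA-seq was performed on tissue of the caudate putamen of male WT C57BL/6 mice, taken 24 h after surgery on the operated side. In ICH mice this was the tissue around the hematoma, and in sham mice the corresponding tissue. The design crossed age with intracerebral hemorrhage (ICH), so that the response to ICH could be compared between ages. The young sham group was 8 to 10 weeks old and received saline, and the young ICH group was of that age and received type IV collagenase, which ruptures small vessels. The aged sham and aged ICH groups were 20 to 22 months old and received saline or type IV collagenase in the same way. Each group held 3 samples, and each sample was a pool of 2 or 3 mice, so the spread given here is that between pools.

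Total counts ran from 28410896 in aged ICH sample 2 to 37785160 in young sham sample 1. Levels are given as CPM after TMM scaling, on which 3 counts correspond to at most 0.102 CPM in any sample. Levels of different genes are compared only as FPKM, the length-scaled values of the authors. A gene was called upregulated or downregulated where its adjusted *P* in edgeR's quasi-likelihood test, adjusted over all 21495 genes, was under 0.05. Fold changes are log2FC ± SE.

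The 8 markers of striatal projection neurons, led by Ppp1r1b, summed to between 249 and 2154 CPM in the 12 samples, with the lowest sums in aged ICH sample 1 (249 CPM), young ICH sample 2 (366 CPM) and aged ICH sample 3 (601 CPM). The 7 markers of choroid plexus, led by Ttr, set 5 libraries apart. Their sums were 490, 305 and 53.8 CPM in young sham samples 1 to 3, 55.5, 9.95 and 4083 CPM in young ICH, 67.3, 56.1 and 88.6 CPM in aged sham, and 1559, 1979 and 39.8 CPM in aged ICH. Young sham samples 1 and 2, young ICH sample 3 and aged ICH samples 1 and 2 therefore held over 100 CPM of choroid plexus markers, and results for Hmox1, Hpx, Cd163, Flvcr1 and Flvcr2 are also given without them and with the choroid plexus sum as a covariate, both chosen after seeing the data. Without these 5 libraries the young sham and aged ICH groups had 1 sample each, which was assumed to vary like the other groups.

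Of the 10 genes, Hmox1 and Hpx were upregulated by ICH at both ages, and no gene was downregulated. In young mice this was 2 of 10 genes upregulated where 9.89% of all tested genes were, and 0 of 10 downregulated where 9.23% were. In aged mice it was again 2 of 10 genes upregulated, against 7% of all tested genes, and 0 of 10 downregulated, against 6.15%. Counted without a test, 4 of the 10 genes were higher in every young ICH sample than in every young sham sample (Hmox1, Hpx, Blvrb and Flvcr1), as were 18.5% of all tested genes. In aged mice 2 genes (Hmox1 and Hpx) were higher in every ICH sample, against 17.8% of tested genes, and 2 (Hmox2 and Slc48a1) were lower in every ICH sample, against 17.3%.

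**Figure D1:**
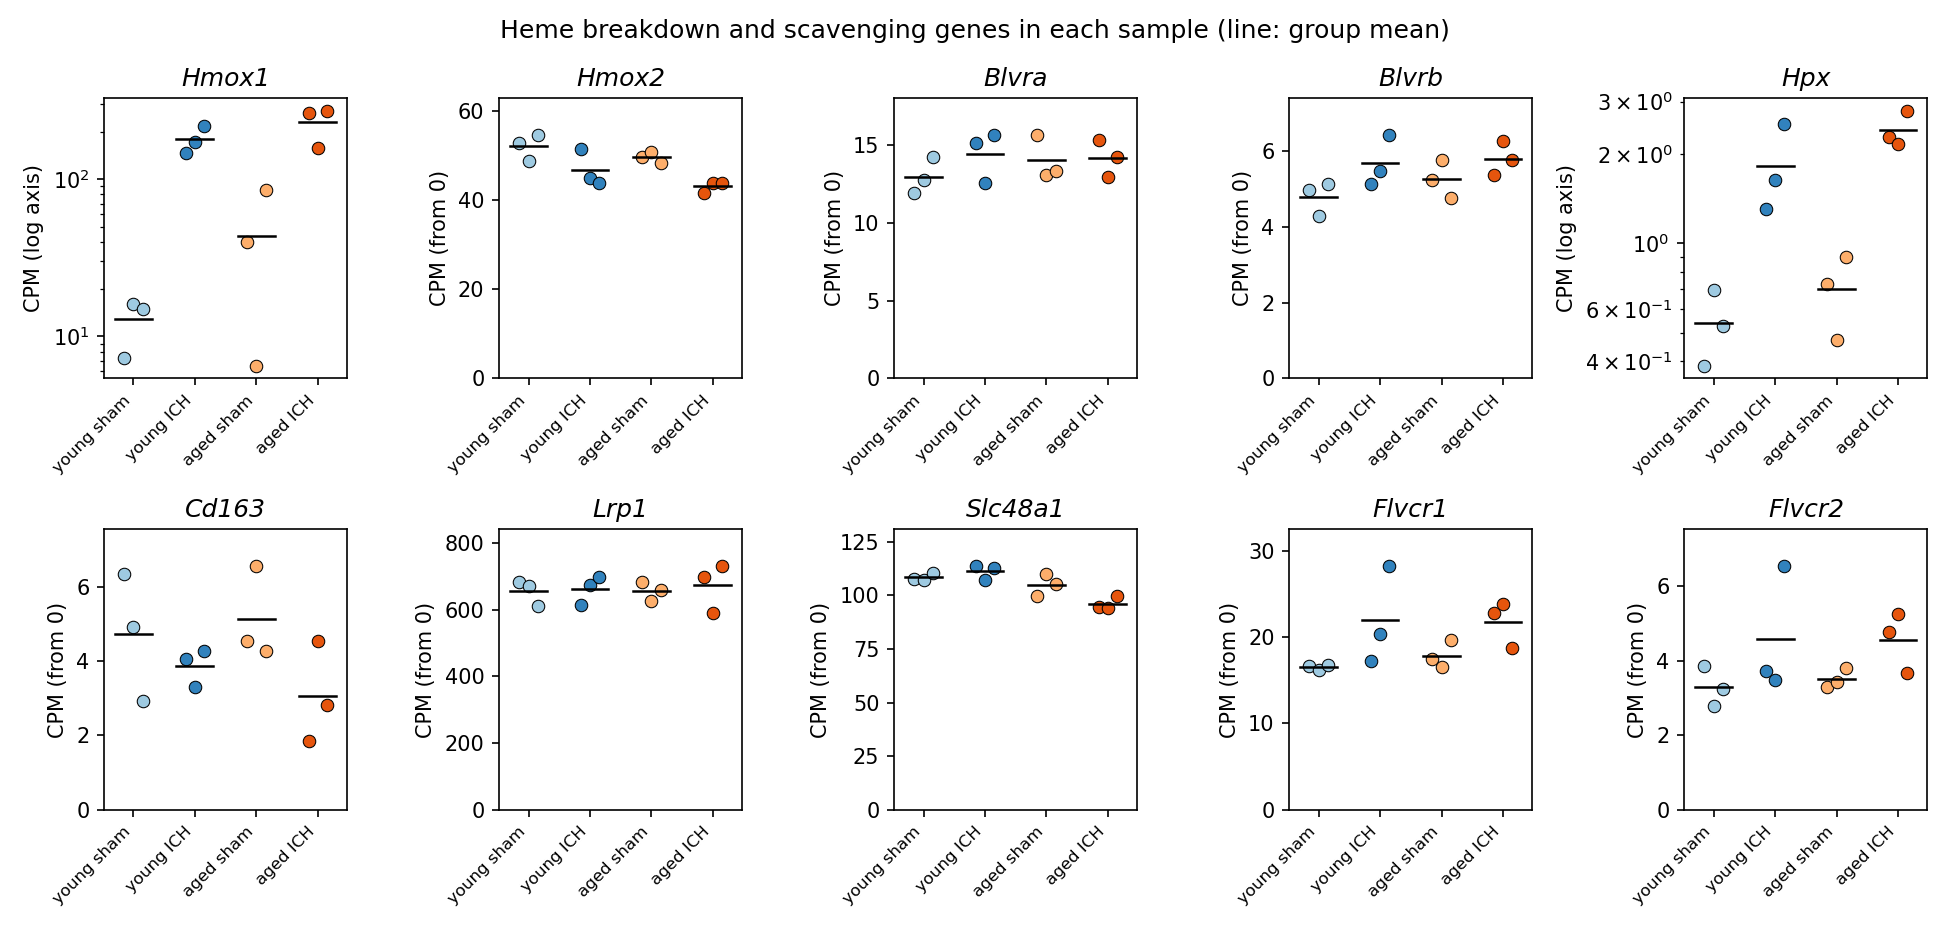
CPM of the 10 genes in each of the 12 samples, as points, with the group mean as a line; Hmox1 and Hpx are drawn on a log axis and the other 8 genes on an axis from 0. Hmox1 lay at 146 to 219 CPM in young ICH and at 7.32 to 16.2 CPM in young sham samples.

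Hmox1, the inducible heme oxygenase, lies at chr8:75093621-75100589 on the plus strand of GRCm38. Its level was 7.32, 16.2 and 14.9 CPM in the young sham samples and 146, 173 and 219 CPM in the young ICH samples. It was 39.6, 6.51 and 84.8 CPM in the aged sham samples and 264, 159 and 273 CPM in the aged ICH samples. Every ICH sample was above every sham sample of either age, whereas the aged sham samples spread over a range that ran from below the lowest to far above the highest young sham sample. Hmox1 was upregulated by 3.81 ± 0.68 in young mice (edgeR, adjusted *P* = 0.00403), a 14.1-fold difference, and by 2.41 ± 0.63 in aged mice (edgeR, adjusted *P* = 0.0285), a 5.30-fold difference. In bulk tissue, more cells that express a gene and more RNA per cell cannot be told apart, which holds for every gene described here.

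The call of the aged response of Hmox1 depended on single libraries of both aged groups. The single libraries whose omission ended the call left the log2FC near the 2.41 of all samples. Without aged ICH sample 1 the number of all genes called in aged mice also fell, from 2828 to 679. Leaving out aged sham sample 1 (edgeR, adjusted *P* = 0.1), aged ICH sample 1 (0.0893) or aged ICH sample 3 (0.078) ended the call, with log2FC of 2.34, 2.30 and 2.27. So did fitting the aged samples alone (2.41, edgeR, adjusted *P* = 0.0716) and leaving out the 5 choroid plexus-rich libraries (2.64, 0.181). With the choroid plexus sum as a covariate the call held (2.39, edgeR, adjusted *P* = 0.0416). Leaving out aged sham sample 3, the highest of its group, raised the log2FC to 3.33, and leaving out aged sham sample 2, the lowest, reduced it to 1.90, and the call held in both cases. Over all alternatives the edgeR, DESeq2 and limma adjusted *P* of this response ran from 0.00432 to 0.181. The young response was called in 21 of 22 alternatives, with log2FC from 3.42 to 4.02 and adjusted *P* from 5.08e-06 to 0.273. The exception was the fit without the 5 choroid plexus-rich libraries (log2FC 3.42, edgeR, adjusted *P* = 0.273), in which no gene of the table was called in young mice.

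Hmox1 was not called in any comparison between ages. The log2FC of aged ICH over young ICH was 0.37 ± 0.59 (edgeR, adjusted *P* = 0.882). In aged sham over young sham mice it was 1.78 ± 0.64 (edgeR, unadjusted *P* = 0.0174, adjusted *P* = 0.303). This difference met the criterion of the study, a fold change over 1.5 or under 0.67 with an unadjusted *P* under 0.05, applied here to the values of edgeR, which 2.82% of tested genes met upward, but not the adjusted test. Without aged sham sample 3 the log2FC was 0.86 (edgeR, adjusted *P* = 0.731) and without aged sham sample 2 it was 2.29 (0.059), and over all alternatives the adjusted *P* ran from 0.059 to 0.748. The response of aged minus that of young mice was −1.41 ± 0.87, with a 95% interval from −3.30 to 0.49 (edgeR, adjusted *P* = 1). As samples were left out this value ran from −1.92 to −0.49. A smaller response in aged mice was therefore not established.

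Sums of blood cell markers in the sham groups stood beside these Hmox1 levels. Erythroid markers (9 genes, led by Hbb-bs) summed to 28.2 to 39.6 CPM in aged sham and 5.42 to 22.5 CPM in young sham samples, and neutrophil markers (10 genes, led by Csf3r) to 14.6 to 26.1 CPM and 10.2 to 12.7 CPM. By the criterion of the study 3 of 5 tested erythroid and 6 of 8 tested neutrophil markers were higher in aged sham mice, and by adjusted *P* in edgeR none was called. Aged sham sample 3, at 84.8 CPM of Hmox1, had the highest monocyte and neutrophil sums of the sham samples. Monocyte markers (8 genes, led by Fn1) summed to 160 CPM in it, to between 82.6 and 122 CPM in the other sham samples, and to between 224 and 296 CPM in the ICH samples. Fn1 made up most of these sums, with means of 104 CPM in young sham and 109 CPM in aged sham mice. Ccr2 and Chil3 were also highest in aged sham sample 3 among the sham samples, whereas Ly6c2, Ms4a4c, Plac8 and F10 were not. Ly6c2 had 33 counts in it against 84 in young sham sample 3, and Ms4a4c 96 against 142 in aged sham sample 1. Neutrophil markers summed to 26.1 CPM in aged sham sample 3 against at most 16.2 CPM in the other sham samples. Nfe2l2, which encodes the regulator Nrf2, was at 31.3 CPM in it against at most 21.3 CPM. Aged sham sample 2 had the lowest Hmox1 level of all samples and the lowest monocyte sum of the sham samples (82.6 CPM). Its erythroid and neutrophil sums, 28.2 and 16.2 CPM, were nevertheless above those of every young sham sample. The highest erythroid sum of the sham samples, 39.6 CPM, was in aged sham sample 1 and not in sample 3. How these values bear on the Hmox1 levels was not tested.

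Hmox2, the constitutive heme oxygenase, was at 48.7 to 54.7 CPM in young sham and 43.7 to 51.5 CPM in young ICH samples, which overlapped. In aged mice it was at 49.7, 50.8 and 48.2 CPM in sham and 41.6, 43.9 and 43.8 CPM in ICH samples, so that every aged ICH sample was lower. The log2FC was −0.16 ± 0.07 in young mice (edgeR, adjusted *P* = 0.146) and −0.20 ± 0.07 in aged mice (edgeR, adjusted *P* = 0.0835). Without young ICH sample 1 Hmox2 was called downregulated at both ages, with log2FC of −0.23 (edgeR, adjusted *P* = 0.0394) and −0.20 (0.0479); over all alternatives the adjusted *P* ran from 0.0394 to 0.616 in young and from 0.0479 to 0.418 in aged mice. Exons of Hmox2 share 892 bases with those of Cdip1 on the opposite strand. No strand setting of the counting was available, so reads of this pair cannot be told apart with certainty. The same limit holds for Flvcr1, which shares 809 exon bases with A230020J21Rik, and for Slc48a1, which shares 29 with Hdac7.

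In young mice the order of the heme oxygenases reversed with ICH on the FPKM scale. Hmox1 over Hmox2 was a ratio of FPKM of 0.176, 0.420 and 0.345 in the young sham samples and of 3.59, 4.88 and 6.36 in the young ICH samples. It was 1.01, 0.162 and 2.23 in the aged sham samples and 8.03, 4.59 and 7.89 in the aged ICH samples. Hmox1 was thus below Hmox2 in every young sham sample and above it in every ICH sample, and the aged sham samples lay on both sides. Mean FPKM of Hmox1 was 7.003 ± 2.61 in young sham, 105 ± 23.0 in young ICH, 24.7 ± 22.5 in aged sham and 137 ± 37.1 in aged ICH (SD, n = 3), while Hmox2 stayed between 20.1 and 22.5 FPKM in the group means.

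Neither biliverdin reductase was called in any comparison. Blvra ranged from 11.9 to 14.3 CPM in young sham, 12.5 to 15.7 CPM in young ICH, 13.1 to 15.7 CPM in aged sham and 12.9 to 15.3 CPM in aged ICH samples, so all groups overlapped. Blvrb was at 4.97, 4.28 and 5.11 CPM in young sham and 5.14, 5.46 and 6.43 CPM in young ICH samples, a narrow separation, and the aged groups overlapped at 4.76 to 6.26 CPM. The log2FC of Blvra was 0.16 ± 0.12 in young and 0.02 ± 0.12 in aged mice (edgeR, adjusted *P* = 0.378 and 0.95), and that of Blvrb 0.24 ± 0.13 and 0.14 ± 0.13 (edgeR, adjusted *P* = 0.228 and 0.53). The upper ends of the 95% intervals, 0.41 and 0.27 for Blvra and 0.54 and 0.43 for Blvrb, exclude a doubling at either age. The Blvra response changed sign in some alternatives at both ages, from −0.04 to 0.25 in young and from −0.04 to 0.10 in aged mice, without a call.

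Hpx, which encodes hemopexin, the plasma carrier of heme, lies at chr7:105591613-105600137 on the minus strand. It had the lowest counts of the 10 genes, from 14 to 89 a sample. Its level was 0.387, 0.698 and 0.528 CPM in young sham, 1.31, 1.63 and 2.52 CPM in young ICH, 0.728, 0.472 and 0.898 CPM in aged sham and 2.29, 2.17 and 2.80 CPM in aged ICH samples. Every ICH sample was above every sham sample of either age. Hpx was upregulated by 1.76 ± 0.32 in young mice (edgeR, adjusted *P* = 0.00437), a 3.38-fold difference, and by 1.78 ± 0.31 in aged mice (edgeR, adjusted *P* = 0.00671), a 3.42-fold difference. The difference between the responses was 0.02 ± 0.50, with a 95% interval from −1.07 to 1.10 (edgeR, adjusted *P* = 1). The responses could thus still differ by slightly more than a doubling in either direction. Without the 5 choroid plexus-rich libraries the log2FC was 1.46 in young (edgeR, adjusted *P* = 0.237) and 1.98 in aged mice (0.0862), and the call was lost at both ages. With the choroid plexus sum as a covariate it was 1.76 and 1.68 (edgeR, adjusted *P* = 0.00354 and 0.0132). On log2(FPKM + 1), where the added 1 is large beside the level of Hpx, limma gave 0.72 and 0.87. Over all alternatives the adjusted *P* ran from 4.12e-05 to 0.237 in young and from 1.96e-05 to 0.0862 in aged mice.

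Genes much like these 2 over the 12 samples were described by Pearson r of log2 CPM, without a test. For Hmox1 they included Cd44 (r = 0.990) and Lilrb4a (r = 0.987), and for Hpx they were Nupr1 (r = 0.981), Resf1 (r = 0.979) and Tead1 (r = 0.978). All 12 samples of the 4 groups enter these values, so they carry the difference between ICH and sham.

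**Figure D2:**
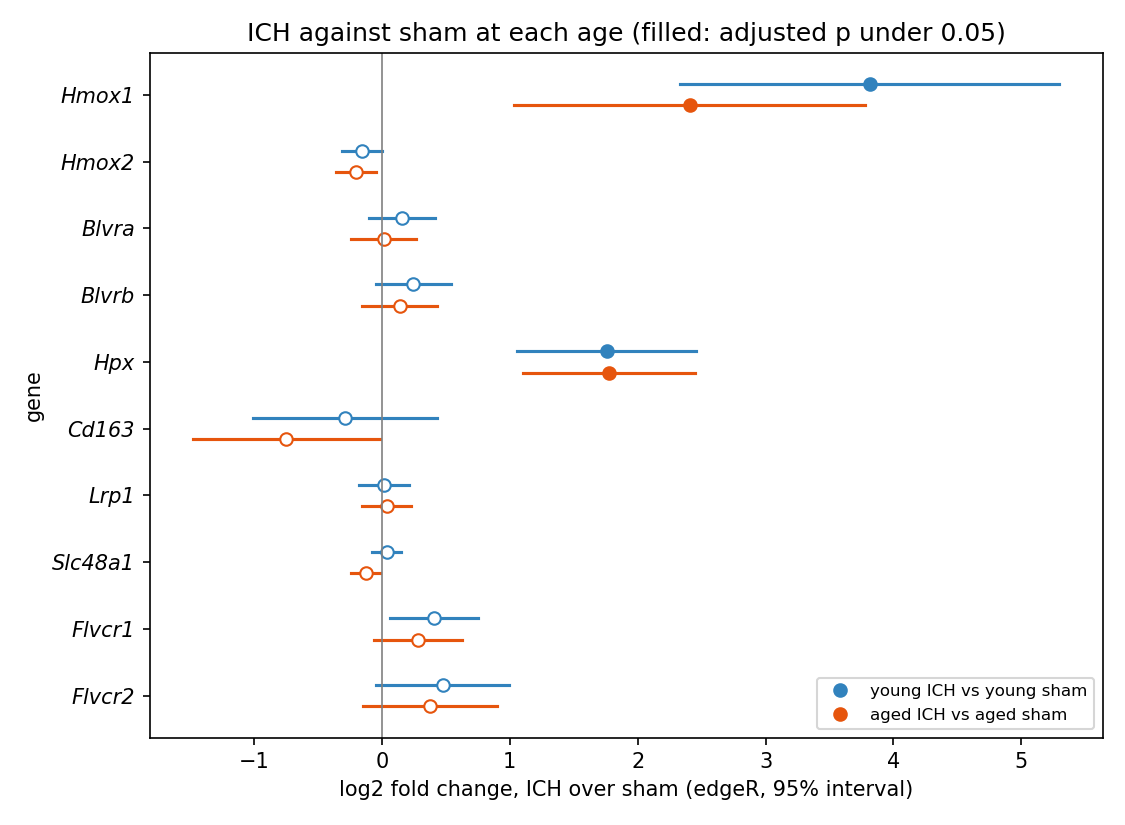
Log2FC of ICH over sham for the 10 genes in young and in aged mice, with 95% intervals from edgeR; filled points passed an adjusted *P* of 0.05. Hmox1 and Hpx are the filled points at both ages.

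Neither Cd163 nor Lrp1, the receptors of hemoglobin and heme, passed the adjusted test of edgeR in any comparison with all samples. Cd163, a macrophage receptor of haptoglobin-bound hemoglobin, was at 6.36, 4.92 and 2.94 CPM in young sham and 4.06, 3.30 and 4.29 CPM in young ICH samples, which overlapped. In aged mice it was at 4.53, 6.57 and 4.28 CPM in sham and 1.84, 4.54 and 2.83 CPM in ICH samples, with 2 of 3 ICH samples below every sham sample. The log2FC was −0.29 ± 0.33 in young (edgeR, adjusted *P* = 0.582) and −0.75 ± 0.33 in aged mice (edgeR, unadjusted *P* = 0.0459, adjusted *P* = 0.164). The aged value met the criterion of the study, as 2.82% of tested genes did downward. The young value changed sign without the 5 choroid plexus-rich libraries, which include the 2 highest young sham samples, to 0.33 (edgeR, adjusted *P* = 0.68), and was −0.24 with the covariate (0.633). The aged value was −0.86 without these libraries (edgeR, adjusted *P* = 0.216) and −0.92 with the covariate (0.112). The log2FC of aged sham over young sham was 0.11 ± 0.33 (edgeR, adjusted *P* = 0.924), and 0.80 without these libraries (unadjusted *P* = 0.038, adjusted *P* = 0.506). The interaction value was −0.46 ± 0.47 (edgeR, adjusted *P* = 1), and −1.18 without these libraries (unadjusted *P* = 0.0346, adjusted *P* = 1). Without aged ICH sample 2 the aged log2FC was −1.14 (edgeR, adjusted *P* = 0.0443), and without aged ICH sample 1 it was −0.48 (0.449), and these are the lowest and highest adjusted *P* of all alternatives.

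Border macrophages are the cells in brain in which Cd163 is best known. Of 9 such markers, 5 were upregulated in young and 4 in aged ICH mice and none was downregulated, while Cd163 was not called. Their sum, led by Stab1, was 31.6 to 47.3 CPM in young sham, 92.1 to 117 CPM in young ICH, 39.1 to 51.5 CPM in aged sham and 92.5 to 111 CPM in aged ICH samples. Lyve1 was upregulated by 1.79 ± 0.35 and 1.48 ± 0.36 (edgeR, adjusted *P* = 0.00631 and 0.0217), and F13a1 by 2.34 ± 0.38 and 1.72 ± 0.36 (edgeR, adjusted *P* = 0.00274 and 0.0129), in young and in aged mice, with every ICH sample above every sham sample. F13a1 is also expressed by monocytes. Whether the cells that carry Cd163 changed in number was not tested.

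Lrp1, the large receptor that takes up hemopexin with heme among many other ligands, was at 590 to 732 CPM over the 12 samples, and the groups overlapped in both ICH comparisons. Its log2FC was 0.02 ± 0.09 in young and 0.04 ± 0.09 in aged mice, and its 95% intervals were from −0.18 to 0.21 in young and from −0.16 to 0.23 in aged mice (edgeR, adjusted *P* = 0.91 and 0.831), with a sign that changed between alternatives. Of 12 relatives or partners of Lrp1, none was upregulated and 3 were downregulated in young mice, and 2 were upregulated and 4 downregulated in aged mice. Lrp12 had log2FC of −0.52 ± 0.08 and −0.43 ± 0.08 (edgeR, adjusted *P* = 0.00293 and 0.01), Sorl1 −0.79 ± 0.14 and −0.49 ± 0.14 (edgeR, adjusted *P* = 0.0037 and 0.0368), and Lrp1b −0.69 ± 0.13 and −0.45 ± 0.13 (edgeR, adjusted *P* = 0.00458 and 0.0371). In aged mice Lrp10 was upregulated by 0.56 ± 0.15 (edgeR, adjusted *P* = 0.0322), and Lrp4 was downregulated by 0.42 ± 0.08 (edgeR, adjusted *P* = 0.00876). Of 5 neuron markers, led by Snap25, 3 were downregulated in young and 0 in aged mice by adjusted *P* in edgeR, with median log2FC of −0.39 and −0.23, and whether the lower values of these relatives of Lrp1 come with fewer neurons was not tested.

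Slc48a1, the heme transporter of endolysosomes, was lowest in the aged ICH group. It was at 108, 107 and 111 CPM in young sham, 114, 107 and 113 CPM in young ICH, 99.7, 110 and 106 CPM in aged sham and 94.7, 94.2 and 99.6 CPM in aged ICH samples. Every aged ICH sample was below every sample of the other 3 groups, narrowly so for 99.6 against 99.7 CPM in aged sham. The log2FC of aged ICH over young ICH was −0.21 ± 0.05 (edgeR, unadjusted *P* = 0.00181, adjusted *P* = 0.223). In the same comparison 12 of 21495 genes, 0.0558%, were called and 0 of the 10, and 1 of the 10 genes was lower in every aged ICH sample, as 6.42% of tested genes were. DESeq2 called it (log2FC −0.22, adjusted *P* = 0.0348), and over all alternatives the adjusted *P* ran from 0.0348 to 0.843. Against aged sham the log2FC was −0.13 ± 0.05 (edgeR, adjusted *P* = 0.133), and in young mice it was 0.04 ± 0.05 (edgeR, adjusted *P* = 0.667). Its interaction value was −0.16 ± 0.07 (edgeR, unadjusted *P* = 0.0473, adjusted *P* = 1).

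Flvcr1 and Flvcr2 were highest in 3 ICH libraries rich in choroid plexus RNA, but not high in the choroid plexus-rich sham libraries. Flvcr1 was at 16.7, 16.2 and 16.7 CPM in young sham, 17.2, 20.4 and 28.3 CPM in young ICH, 17.4, 16.5 and 19.6 CPM in aged sham and 22.7, 23.8 and 18.7 CPM in aged ICH samples. Flvcr2 was at 3.87, 2.79 and 3.23 CPM in young sham, 3.71, 3.49 and 6.55 CPM in young ICH, 3.31, 3.44 and 3.80 CPM in aged sham and 4.77, 5.25 and 3.68 CPM in aged ICH samples. Young sham sample 2, 1 of the 5 choroid plexus-rich libraries, was the lowest of all samples for both genes. Young sham sample 1, another of them, was at 16.7 and 3.87 CPM. The 3 highest samples of both genes were young ICH sample 3 and aged ICH samples 1 and 2, the 3 libraries with the highest choroid plexus sums. With that sum as a covariate, added after this was seen and so no separate evidence of it, Flvcr2 rose by 0.10 ± 0.02 on the log2 scale for each doubling of the sum (edgeR, adjusted *P* = 0.0491) while the slope of Flvcr1 was 0.06 ± 0.02 (edgeR, adjusted *P* = 0.0958). Of all 21495 genes 399 were called for that slope, and the other 8 genes had adjusted *P* of 0.595 to 0.999.

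With all samples and no covariate, edgeR called neither in any comparison. Flvcr1 had log2FC of 0.41 ± 0.16 in young and 0.28 ± 0.16 in aged mice (edgeR, adjusted *P* = 0.0918 and 0.259), and Flvcr2 0.47 ± 0.24 and 0.37 ± 0.24 (edgeR, adjusted *P* = 0.191 and 0.331). With the covariate, both were called upregulated in young mice, Flvcr1 by 0.42 and Flvcr2 by 0.48 (edgeR, adjusted *P* = 0.0178 and 0.0368), and in aged mice they had 0.11 and 0.08 (0.571 and 0.769). Without the 5 choroid plexus-rich libraries the young values were 0.16 for Flvcr1 and 0.16 for Flvcr2 (edgeR, adjusted *P* = 0.676 and 0.789), and the aged values 0.07 and 0.06 (0.857 and 0.909). Without young ICH sample 3 alone the young values were 0.18 and 0.13, the lowest of the fits that left out a sample. Flvcr1 also passed in young mice without young ICH sample 1 (0.56, edgeR, adjusted *P* = 0.0274). Over all alternatives the adjusted *P* in young mice ran from 0.0178 to 0.676 for Flvcr1 and from 0.0368 to 0.789 for Flvcr2. Which cells hold these transcripts was not tested.

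**Figure D3:**
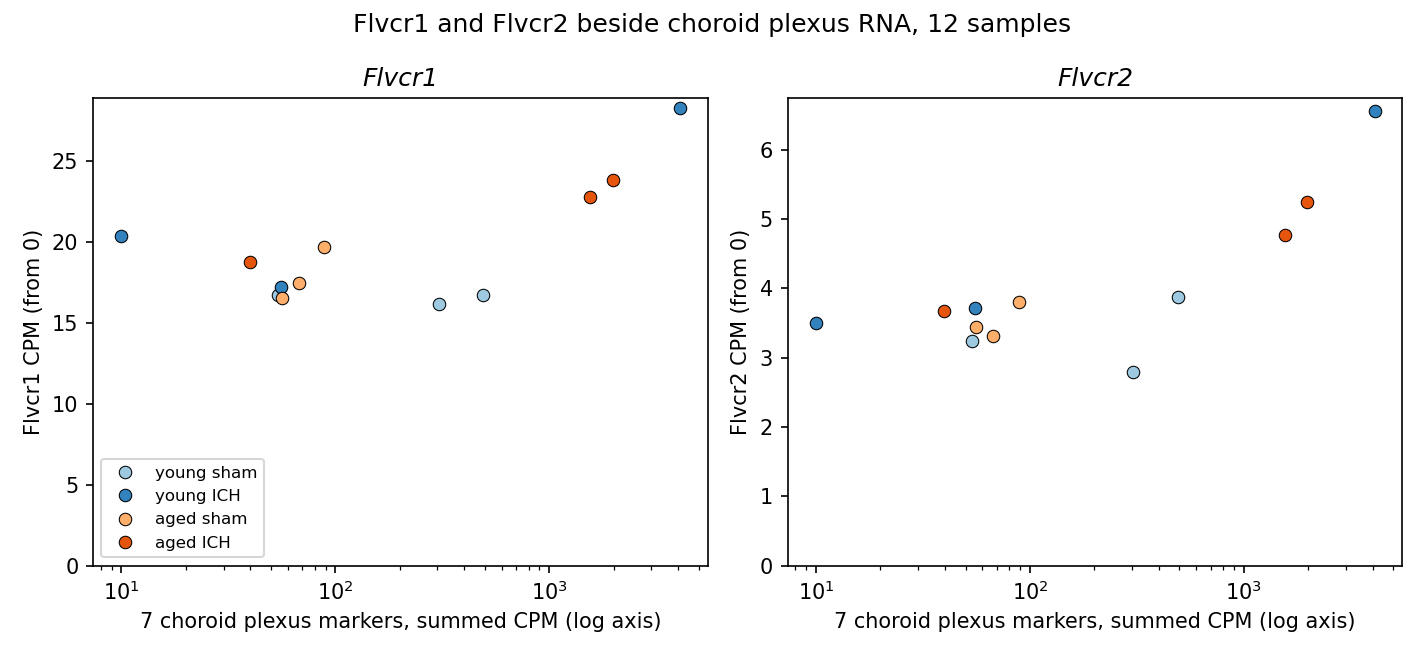
CPM of Flvcr1 and Flvcr2 in each sample on an axis from 0, against the summed CPM of 7 choroid plexus markers on a log axis, by group. Young ICH sample 3, at 4083 CPM of choroid plexus markers, was the highest for both genes (28.3 and 6.55 CPM).

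With all samples, edgeR called no difference between ages among the 10 genes, and DESeq2 called that of Slc48a1 between the ICH groups, given above. In aged sham against young sham mice 22 of 21495 genes (0.102%) were called and 0 of the 10. In the test of the interaction of age and ICH, edgeR called 0% of genes, with 606 at an unadjusted *P* under 0.05, while DESeq2 called 1 gene and limma on log2(FPKM + 1) up to 8, none of them among the 10. The adjusted *P* was 1 for each of the 10 genes in edgeR. These tests do not show that the responses were alike, and the intervals of Hmox1 and Hpx given above are the measure of what 3 samples a group could resolve.

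The order of the 10 genes on the FPKM scale changed with ICH at both ages, in young mice chiefly through Hmox1. In young sham samples the mean FPKM was 37.8 ± 0.834 for Slc48a1, 35.4 ± 2.001 for Lrp1, 22.5 ± 1.42 for Hmox2, 7.003 ± 2.61 for Hmox1, 5.08 ± 0.481 for Blvra and 3.06 ± 0.0704 for Flvcr1 (SD, n = 3). Blvrb was at 1.65 ± 0.160, Flvcr2 at 0.902 ± 0.150, Cd163 at 0.830 ± 0.300 and Hpx at 0.343 ± 0.0984 FPKM. Neighbours in this order often overlapped, such as Slc48a1 and Lrp1 in every group but young sham, and the aged sham range of Hmox1, 3.65 to 48.4 FPKM, spanned those of Blvra, Hmox2, Lrp1 and Slc48a1. Hmox1 stood at place 4 in young sham and 3 in aged sham and at the top in both ICH groups. Hpx stood at place 10 in both sham groups, 9 in young ICH and 8 in aged ICH. Cd163 stood at place 9 in both sham groups and 10 in both ICH groups, and Lrp1 stood above Slc48a1 only in aged ICH. The ranges of Hpx and Flvcr2 overlapped in both ICH groups, so their order there is not settled.

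For each pathway gene called below, every ICH sample lay on the called side of every sham sample of that age. Of 13 partners and regulators of heme oxygenase, 7 were upregulated in young and 6 in aged ICH mice and none was downregulated, with median log2FC of 0.23 and 0.24 against 0.02 and 0.00 over all tested genes. Bach1, the heme-sensitive repressor of Hmox1, was at 21.0 to 21.4 CPM in young sham and 27.5 to 35.5 CPM in young ICH samples, a log2FC of 0.56 ± 0.10 (edgeR, adjusted *P* = 0.00463), and had 0.49 ± 0.10 in aged mice (edgeR, adjusted *P* = 0.0129). Nfe2l2, which encodes the activator Nrf2, had 0.95 ± 0.18 in young and 0.65 ± 0.17 in aged mice (edgeR, adjusted *P* = 0.00456 and 0.032). Maff and Mafk, small Maf proteins that pair with either factor, had 1.63 ± 0.16 and 0.99 ± 0.10 in young mice (edgeR, adjusted *P* = 0.000546 and 0.000745) and 1.70 ± 0.15 and 0.76 ± 0.10 in aged mice (edgeR, adjusted *P* = 0.000744 and 0.00381). Cyb5r3 was upregulated by 0.39 ± 0.07 at both ages (edgeR, adjusted *P* = 0.0052 and 0.00971), and Por, the reductase that feeds electrons to heme oxygenase, in young mice (0.28 ± 0.07, edgeR, adjusted *P* = 0.0192). Of 7 other Nrf2 and Bach1 target genes, 1 was upregulated in young and 2 in aged mice; Txnrd1 had 0.48 ± 0.07 and 0.50 ± 0.07 (edgeR, adjusted *P* = 0.00229 and 0.00439), and Gsr had 0.31 ± 0.08 in aged mice (edgeR, adjusted *P* = 0.0346).

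Iron released by heme oxygenase is stored in ferritin or exported by Slc40a1, and of 8 such genes 2 were upregulated and 1 downregulated at each age. Ftl1 was at 65.0 to 75.5 CPM in young sham and 131 to 159 CPM in young ICH samples, a log2FC of 1.01 ± 0.10 (edgeR, adjusted *P* = 0.000546), and had 0.72 ± 0.10 in aged mice (edgeR, adjusted *P* = 0.00381). Fth1 had 0.45 ± 0.12 and 0.43 ± 0.12 (edgeR, adjusted *P* = 0.0195 and 0.0315). Slc40a1, the iron exporter, was at 7.69 to 11.03 CPM over the 12 samples and was not called, with −0.17 ± 0.13 and −0.20 ± 0.13 (edgeR, adjusted *P* = 0.391 and 0.339). Tfrc, the transferrin receptor, was downregulated in young mice (−0.50 ± 0.10, edgeR, adjusted *P* = 0.008), and Ncoa4, the ferritin receptor of autophagy, in aged mice (−0.27 ± 0.07, edgeR, adjusted *P* = 0.0359).

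Of 9 heme synthesis genes, 1 was upregulated and 1 downregulated at each age. Alas1, the first enzyme of the pathway, was downregulated at both ages (−0.21 ± 0.06 and −0.32 ± 0.06, edgeR, adjusted *P* = 0.0361 and 0.00961), and Ppox was upregulated (0.34 ± 0.08 and 0.27 ± 0.08, edgeR, adjusted *P* = 0.0115 and 0.0415). Of 10 tested carriers and transporters of heme or hemoglobin, 1 was upregulated in young mice and 1 other was downregulated in aged mice. The upregulated gene was Hp, which encodes haptoglobin, the partner of Cd163, with 1.94 ± 0.54 (edgeR, adjusted *P* = 0.029), from 0.317 to 0.718 CPM in young sham to 1.16 to 2.62 CPM in young ICH samples. In aged mice Hp was not called (0.83 ± 0.50, edgeR, adjusted *P* = 0.297), with 2.37 CPM in aged sham sample 3 above 2 of 3 aged ICH samples. Of 4 tested bilirubin transport genes, Slco2b1 was upregulated at both ages (0.45 ± 0.08 and 0.29 ± 0.08, edgeR, adjusted *P* = 0.00388 and 0.0333) and Abcc3 in young mice (0.60 ± 0.18, edgeR, adjusted *P* = 0.0413).

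Promoters of GRCm38.p6 (RefSeq, 250 bases before to 50 after each gene start) were found for 8 of the 10 genes, all but Hmox1 and Slc48a1, with 11 starts. They were searched on both strands for the antioxidant response element core TGACNNNGC, the AP-1 site TGANTCA and the E-box CACGTG, as a description of the letters only. TGACNNNGC was present in 12.4% of the 32851 promoters of the table and in 4 of the 11, those of Hpx, Blvra, Lrp1 and Flvcr1. TGANTCA was present in 7.81% of all promoters and in none of the 11, and CACGTG in 7.15% of all promoters and in that of Flvcr2. No match overlapped another. The promoter of Hpx, called at both ages, and those of Flvcr1 and Flvcr2, which share their highest samples, are printed 5′ to 3′ with the matches in capitals. They lie at chr7:105600067-105600366 (minus strand), chr1:191026141-191026440 (minus strand) and chr12:85746289-85746588 (plus strand).
Hpx: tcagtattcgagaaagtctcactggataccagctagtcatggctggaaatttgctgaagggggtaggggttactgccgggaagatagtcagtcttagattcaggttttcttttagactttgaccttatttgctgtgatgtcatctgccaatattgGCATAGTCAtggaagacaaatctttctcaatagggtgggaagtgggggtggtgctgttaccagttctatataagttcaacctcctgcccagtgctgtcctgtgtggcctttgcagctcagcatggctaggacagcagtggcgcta
Flvcr1: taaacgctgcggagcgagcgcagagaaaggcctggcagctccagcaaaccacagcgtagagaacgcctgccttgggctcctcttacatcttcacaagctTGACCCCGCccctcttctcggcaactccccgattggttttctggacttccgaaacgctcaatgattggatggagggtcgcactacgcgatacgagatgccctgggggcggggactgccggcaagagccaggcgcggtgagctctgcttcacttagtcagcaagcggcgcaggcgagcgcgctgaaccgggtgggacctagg
Flvcr2: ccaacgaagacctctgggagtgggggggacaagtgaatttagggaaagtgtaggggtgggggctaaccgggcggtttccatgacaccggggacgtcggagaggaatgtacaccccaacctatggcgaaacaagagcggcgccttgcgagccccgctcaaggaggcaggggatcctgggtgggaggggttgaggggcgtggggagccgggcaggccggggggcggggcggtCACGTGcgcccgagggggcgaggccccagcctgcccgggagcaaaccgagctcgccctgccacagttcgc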

How the data were processed

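RNA-seq counts and FPKM values per gene were deposited by the authors in 12 columns each. According to the submitters' processing notes, reads were aligned with HISAT2 to GRCm38.p6 and counted with featureCounts; these notes give no strand setting. The deposited counts are raw reads per gene, and the deposited FPKM values were scaled by the authors for gene length and library total.

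Counts were tested with edgeR 4.0.16 (R 4.3.3) quasi-likelihood fits with TMM scaling, filterByExpr with a minimum count of 10, all 12 samples and 4 groups, with Benjamini-Hochberg adjustment over the 21495 genes kept. CPM are counts over TMM-scaled library sizes. The script was tested on simulated data. Alternatives were median-of-ratios size factors, DESeq2 1.42.0, no filter, only the groups compared, a replicate block, limma 3.58.1 on log2(FPKM + 1) or log2(FPKM + 0.1), the criterion of the study (applied here to edgeR's fold changes and unadjusted *P*), each sample left out in turn, and 2 added after seeing the data. Total counts of 28410896 to 37785160 a sample leave 3 counts at 0.0829 to 0.102 CPM.

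The 10 genes, the pathway lists, the marker lists and the rule for named genes (all 10; pathway genes called, at most 6 a list in order of p; Hp, Bach1, Nfe2l2, Fth1, Ftl1 and Slc40a1 in any case; 3 genes most like each called member) were chosen with earlier results of these data known. Some genes that this rule selects are not reported here. Gene positions are from GENCODE vM21.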

Additional observations from a re-analysis of the deposited data

How the results depend on the processing

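Over 9 alternatives set before the expression files were opened, 12 fits that left out a sample and 2 fits added after seeing the data, 1123 of 1140 values of the 10 genes kept their side of the threshold; 8 lost and 9 gained a call, and none that was called reversed. A sign change without a call, 66 values, was not counted as a reversal. Where a count moved the cause was not tested, unless fewer samples or genes were fitted.

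The number of genes called in young ICH against young sham mice was 4110. It fell to 2442 in the fit of only the groups compared and to 2612 by the criterion of the study. With DESeq2 it rose to 4746, with 2276 higher and 2470 lower, against 2125 and 1985 with edgeR. As samples were left out it ran from 1858 to 4225, and the 2 members called became 2 to 4. In aged ICH against aged sham mice the 2 members became 1 with only the groups compared and 3 by the criterion of the study. Leaving out samples gave 1 to 3 members. The number of genes called (2828) was 1946 to 3675 over the 9 alternatives and 679 to 3327 as samples were left out. In aged sham against young sham mice (22 genes) it was 269 with DESeq2, 77 with no filter, 10 with only the groups compared and 799 by the criterion of the study, by which 1 member was called, and 6 to 28 genes and 0 members as samples were left out. In aged ICH against young ICH mice (12 genes) it was 192 with DESeq2, which called 1 member, 61 with no filter, 3 with only the groups compared, 19 with limma at either pseudocount and 756 by the criterion of the study, and 4 to 19 genes and 0 members as samples were left out. For the interaction (0 genes with edgeR, 606 at unadjusted *P* under 0.05) DESeq2 and limma on log2(FPKM + 1) called 1, limma with no filter 8 and the criterion of the study 336; leaving out samples gave 0 genes and 0 members.

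On FPKM, limma called more genes upward: 73.2% to 73.8% of calls in young and 74.8% to 76.9% in aged mice, against 51.7% and 53.2% with edgeR.

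Without the 5 choroid plexus-rich libraries the counts were 0, 9, 0 and 0 genes in the 4 pairwise comparisons, and 0 members at both ages; groups left with 1 sample and fewer residual degrees of freedom are part of that fit. With choroid plexus RNA as a covariate, the genes called in young ICH against young sham mice were 5053 of 21495, with 2532 higher (11.8% of genes tested), and the members called were 4, all higher; 66 genes were called in aged sham against young sham mice.

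Deviations of same-numbered samples had r from −0.454 to 0.235 (18 pairs, 5 over 0.1), and those of other pairs −0.374 to 0.41 (36 pairs, 13 over 0.1), so no pairing by number was seen; the labels do not say whether there was any. With the replicate block, 3502 and 2464 genes were called for ICH in young and aged mice, 12 in aged sham against young sham, 8 in aged ICH against young ICH and 0 in the interaction, and 2, 2, 0, 0 and 0 members.

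Depth limits Hpx most, with 14 to 89 counts a sample.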

Other observations

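Alas2, the erythroid form of the first heme synthesis enzyme, was at 24.6 CPM in aged ICH sample 3 and at 0.387 to 3.56 CPM in the other 11 samples. Its log2FC in aged mice was 2.28 ± 0.95 (edgeR, adjusted *P* = 0.136). The other 2 aged ICH samples, at 0.892 and 1.90 CPM, were within or below the range of the aged sham samples, 1.71 to 2.12 CPM. The 9 erythroid markers, of which Alas2 is 1 and Hbb-bs the most abundant, summed to 83.0 CPM in that sample, second to the 121 CPM of young ICH sample 2, where Alas2 was at 3.56 CPM. Slc4a1, an anion exchanger of red cells, was at 1.01 CPM in aged ICH sample 3 and at most 0.479 CPM in the other samples. The cause was not tested.

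The sum of erythroid markers and the level of Hmox1 had the same order in the aged ICH samples and not in the young ones. In aged ICH samples 3, 1 and 2 the erythroid sums were 83.0, 30.0 and 24.6 CPM and Hmox1 was at 273, 264 and 159 CPM. In young ICH samples 2, 3 and 1 the erythroid sums were 121, 52.5 and 29.0 CPM and Hmox1 was at 173, 219 and 146 CPM. Aged ICH sample 1 also had the lowest striatal projection neuron sum (249 CPM), whereas aged ICH sample 2, with the lowest Hmox1 of its group (159 CPM), had the highest one (1497 CPM). In young ICH samples this was not so, since sample 3 had both the most Hmox1 (219 CPM) and the highest striatal sum (1324 CPM). How much of each pool came from the edge of the hematoma was not tested.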
